A study of Mus musculus with 6 samples.

Results

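The 2 mature arms of mouse miR-335, miR-335-5p (MIMAT0000766) and miR-335-3p (MIMAT0004704), were taken from the deposited table of raw miRNA counts by their mature accessions. They are 2 of the 707 mature miRNAs in the table, and both had enough counts to be tested. The libraries came from white adipose tissue (WAT) of male ApoE-deficient (ApoE-/-) mice, which lack apolipoprotein E and develop high blood cholesterol. The CIH group (3 libraries) was exposed for 8 weeks to chronic intermittent hypoxia, cycles of low oxygen (about 6%) and room air (21% oxygen) in which each change of gas took 60 s. The control group (3 libraries) consisted of ApoE-/- mice without CIH, so both groups carried the same deletion and no wild-type animals were included. The age of the mice, the WAT depot and whether each library came from a single animal are not given in the sources used here, so p-values measure the spread between these libraries.

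miR-335 is made from an intron of Mest, a paternally expressed imprinted gene that encodes a protein of the alpha/beta hydrolase fold family and is known as a marker of adipose tissue expansion. A miRNA hairpin is cut into a short duplex, of which one arm, the 5p or the 3p strand, is kept by an Argonaute protein and guides it to mRNAs that pair with the seed of the miRNA. In fat, miR-335 has been tied to adipocyte lipid load and to inflammatory signals. The mRNA of Mest itself was not measured in these libraries.

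The mature sequences are shown because each arm is counted from its own sequence and each has its own seed. They were taken from RefSeq on build GRCm38.p6, where both arms were matched by name, and are printed from 5′ to 3′ with the seed (bases 2 to 8) in capitals.

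miR-335-5p: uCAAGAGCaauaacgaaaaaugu

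miR-335-3p: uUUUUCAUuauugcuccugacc

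The 5p arm had 23 bases (chromosome 6, 30741314 to 30741336, plus strand) and the 3p arm 22 (30741354 to 30741375). The seeds differed, and neither was found in any other of the 1679 mature miRNA names in the same RefSeq table. The longest stretch that either arm shared with any of the 1004 other hairpins was 10 bases for miR-335-5p and 9 bases for miR-335-3p, and no other miRNA in the count table had identical counts in all 6 libraries. Reads of either arm therefore had no near-identical copy in that table.

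The hairpin Mir335 (98 bases, chr6:30741299-30741396, plus strand) is shown to place both arms, which are in capitals.

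Mir335: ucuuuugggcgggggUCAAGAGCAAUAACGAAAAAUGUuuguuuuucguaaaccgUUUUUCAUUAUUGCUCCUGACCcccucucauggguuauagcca

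In the structure predicted by RNAfold, 18 bases of the 5p arm paired with the 3p arm, and 17 bases separated the arms. Of the first 4 bases at the 5′ end, 3 were A or U in miR-335-5p and 4 in miR-335-3p. In GENCODE release M21 the gene Mest spans 30723547 to 30748465 on the plus strand of chromosome 6. Mir335 lay in an intron of all 7 of the 11 annotated Mest transcripts that span it, and in an exon of none. That intron ran from 30740825 to 30742140 (1316 bases) in each of them and was intron 3 of the 13-exon transcript Mest-202, where the hairpin began 474 bases after the exon. Within 1 Mb, the annotation placed 5 other miRNA genes, Mir182, Mir96 and Mir183 571.6 to 575.4 kb upstream and Mir29a and Mir29b-1 321.4 to 321.7 kb downstream, all on the minus strand. Their counts were not analysed here because the count table gives accessions without names.

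**Figure D1:**
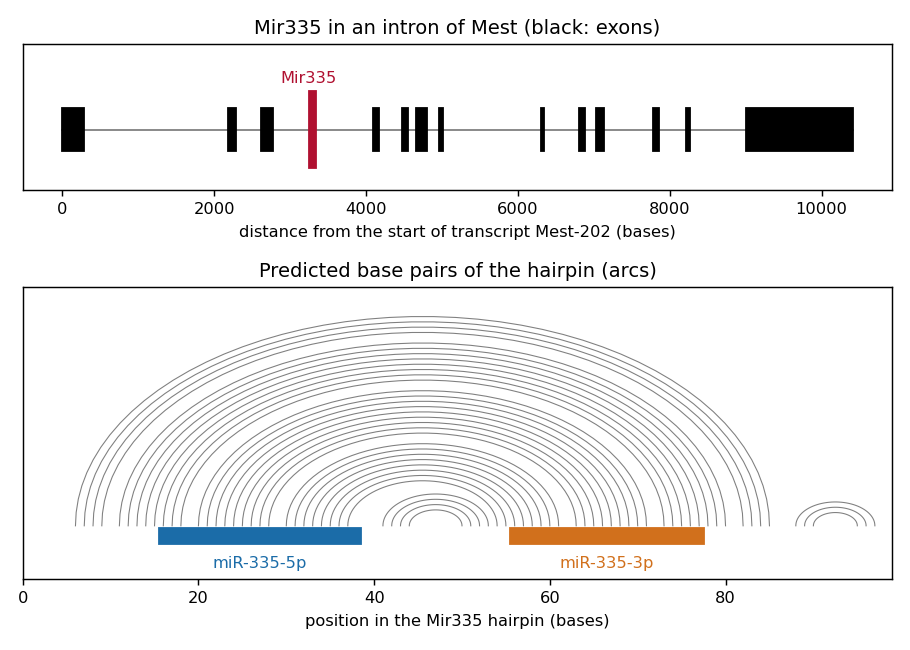
Above, the exons of the Mest transcript Mest-202 (black) and Mir335 (red) are plotted against the distance in bases from the start of the transcript. Below, arcs join the bases predicted to pair, plotted against the position in the 98-base hairpin, with the 5p arm in blue and the 3p arm in orange, and most bases of one arm are joined to the other.

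The libraries held between 636963 and 4783768 counts, with control 2 the deepest. Trimmed mean of M-values (TMM) factors, which correct the totals for composition, ran from 0.575 in control 1 to 1.45 in CIH 3. Controls 1 and 2 stood apart from the other 4 libraries: across the 633 miRNAs tested, control 3 correlated with the CIH libraries at 0.958 to 0.974 (Pearson's r of log2 CPM, the counts per 1000000 counts of a library) and with controls 1 and 2 at 0.595 and 0.661. Controls 1 and 2 correlated with each other at 0.831 and with the CIH libraries at 0.621 to 0.712. The points of these correlations are miRNAs, not replicates. The paper names WAT as the tissue of both groups. Marker miRNAs could not be matched to the counts, so whether controls 1 and 2 held the same tissue as control 3 was not tested. The control means include all 3 controls, and the fold changes and arm ratios are also given without control 1, control 2 or both.

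miR-335-5p had at most 45 counts in 5 libraries and was an abundant miRNA in control 2. It had 10, 6779 and 36 counts in controls 1, 2 and 3 and 45, 24 and 25 counts in CIH 1, 2 and 3. Among the 707 miRNAs of the table it ranked 51st in control 2 and between 266th and 296th in the other 5 libraries. As CPM of the library total, its level was 1417 in control 2 (95% Wilson interval 1384 to 1451), against 7.32 (3.98 to 13.5) in control 1 and 45.4 (32.8 to 62.9) in control 3. In the CIH libraries it was 28.5 (21.3 to 38.2), 32.5 (21.9 to 48.4) and 39.2 (26.6 to 57.9) in order. The intervals of control 3 and the CIH libraries overlapped, control 1 lay below all of these and control 2 lay far above them. These intervals cover counting error only, and in bulk tissue fewer cells of a type and less RNA per cell cannot be told apart.

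On the TMM-normalized scale, which is used for levels from here on, miR-335-5p had 12.7, 1636 and 32.4 CPM in controls 1, 2 and 3, and 36.1, 25.9 and 27.1 CPM in CIH 1, 2 and 3. The level in control 2 was 128-fold that in control 1, 50.4-fold that in control 3 and 60.3-fold the median of the CIH group, and it made up 97.3% of the summed control level. Control 1 had the lowest value and the CIH libraries lay within 1.39-fold of each other, around control 3. The interval of control 1 on this scale (6.91 to 23.4) overlapped those of CIH 2 (17.4 to 38.6) and CIH 3 (18.4 to 40.03), so its order against these 2 libraries was not resolved at this depth.

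miR-335-3p varied in the same order between the controls but over a narrower range. Its counts were 3, 383 and 39 in controls 1, 2 and 3 and 34, 18 and 15 in CIH 1, 2 and 3. Its TMM-normalized level was 3.82, 92.4 and 35.2 CPM in the controls and 27.3, 19.4 and 16.3 CPM in the CIH libraries. Control 2 was again the highest library, by 2.63-fold over control 3 and 4.75-fold over the CIH median, and control 3 was 1.29-fold above the highest CIH library. Control 1 was the lowest, with only 3 counts, and its interval (1.30 to 11.2 CPM) overlapped that of CIH 3 (9.86 to 26.8 CPM).

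**Figure D2:**
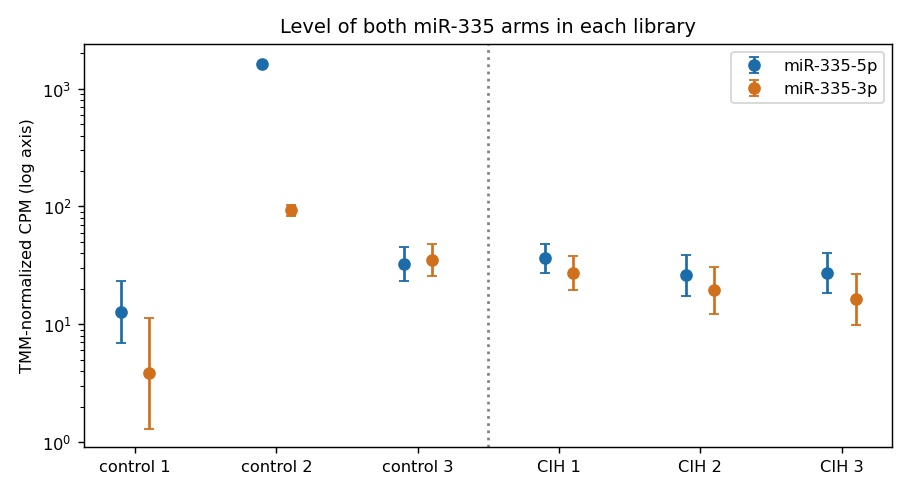
The level of miR-335-5p (blue) and miR-335-3p (orange) is plotted for each library as TMM-normalized CPM on a log axis, with 95% Wilson intervals for counting error. Control 2 stands at 1636 CPM for the 5p arm, and the 5p levels of control 3 and the CIH libraries lie between 25.9 and 36.1 CPM.

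The comparison of CIH with control asks whether CIH altered the miRNAs of WAT. Both arms had a higher mean in the controls, where control 2 held most of the summed level, and neither arm passed the test. miR-335-5p averaged 560.2 ± 931.3 CPM in the controls and 29.7 ± 5.58 CPM under CIH (SD, n = 3). By the quasi-likelihood test of edgeR, its log2 fold change of CIH over control was -4.23 ± 1.83 (standard error), with an unadjusted p = 0.0564 and an adjusted p = 0.882. miR-335-3p averaged 43.8 ± 44.9 CPM in the controls and 21.01 ± 5.68 CPM under CIH (SD, n = 3). In the same edgeR fit it changed by -1.07 ± 1.02 (standard error) on the log2 scale, with an unadjusted p = 0.334 and an adjusted p = 0.882. Over the 633 miRNAs tested, the median of this fold change was 0.07, and 19 of them had a more negative value than miR-335-5p and 130 a more negative value than miR-335-3p.

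By the adjusted p-value, 0 of the 633 miRNAs tested passed in edgeR (0%), and DESeq2 and limma voom also gave 0, while 16 had an unadjusted p-value under 0.05 in edgeR. By the looser criteria of 0.05 for the unadjusted p-value together with 1.5-fold, 2.53% of the tested miRNAs were called, 2.05% as lower in CIH, and neither arm was among them. The groups overlapped for both arms, whereas non-overlapping groups were found for 8.06% of the tested miRNAs. On the log2 scale, where a single high library weighs less, the mean difference between the groups was -1.58 for miR-335-5p (two-sided exact permutation test over libraries, p = 0.8) and -0.25 for miR-335-3p (same exact test, p = 0.9). The smallest p that 3 libraries against 3 allow is 0.1.

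Without control 2, both fold changes turned positive and were smaller than their standard errors, at 0.46 (standard error 0.62) for miR-335-5p and 0.18 (standard error 0.94) for miR-335-3p. With control 3 as the only control, they were -0.03 (standard error 0.39) and -0.64 (standard error 0.42); the lone control is then assumed to vary like the CIH libraries. Without control 1, the fold changes were -4.84 for miR-335-5p (unadjusted p = 0.0212, adjusted p = 0.942, edgeR) and -1.60 for miR-335-3p (unadjusted p = 0.0511, adjusted p = 0.942, edgeR). Without control 3, they were -4.79 for miR-335-5p (unadjusted p = 0.0257, adjusted p = 0.0873, edgeR) and -1.22 for miR-335-3p (unadjusted p = 0.301, adjusted p = 0.447, edgeR), and 118 miRNAs then had an adjusted p-value under 0.05, neither arm among them. By the looser criteria, miR-335-5p was called without control 1, where 2.69% of all tested miRNAs were, and without control 3, where 37.6% were. Leaving out any CIH library moved the fold change of miR-335-5p only between -4.42 and -4.14. The direction of the 5p difference in the full comparison thus rested on control 2. DESeq2 gave no p-value for miR-335-5p, as it does when the Cook's distance of a library, a measure of how far it alone moves the fit, passes a limit: the largest was 33.5, in control 2, against a limit of 18.0. This applied to 48 of the 633 miRNAs tested and not to miR-335-3p, whose largest Cook's distance was 0.128.

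**Figure D3:**
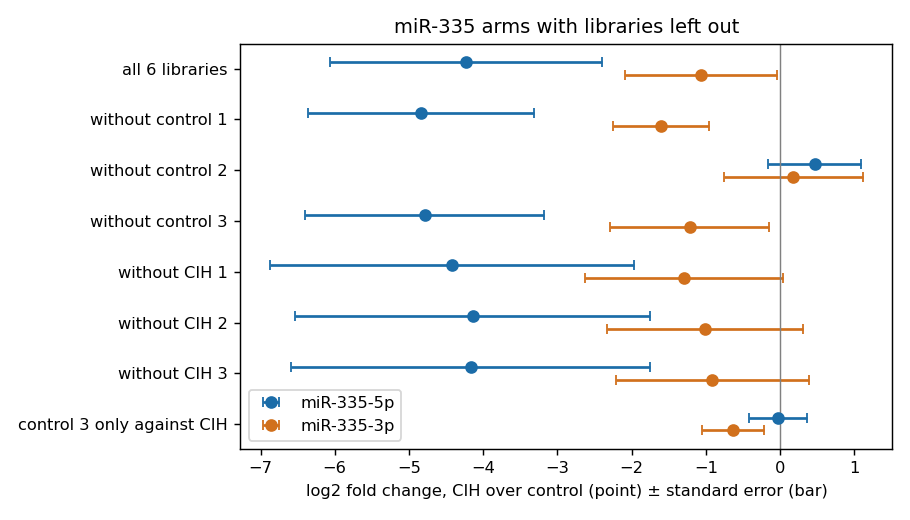
The log2 fold change of CIH over control (point) with its standard error (bar) from edgeR is plotted for each arm with all 6 libraries, with each library left out and with control 3 as the only control. The 5p arm lies near -4 or below except where control 2 is left out, where it is 0.46 without control 2 and -0.03 with control 3 alone.

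The excess of control 2 was not shared by both arms to the same degree, so the balance of the arms differed between the libraries. The 5p arm took 94.7% of the miR-335 counts in control 2 (6779 of 7162, 95% Wilson interval 94.1% to 95.1%). It took 76.9% in control 1 (10 of 13 counts, 49.7% to 91.8%) and 48.0% in control 3 (36 of 75, 37.1% to 59.1%). In CIH 1, 2 and 3 it took 57.0% (45 of 79, 46.0% to 67.3%), 57.1% (24 of 42, 42.2% to 70.9%) and 62.5% (25 of 40, 47.0% to 75.8%). The interval of control 2 lay above those of all other libraries, the CIH libraries and control 3 could not be told apart at this depth, and the 13 counts of control 1 left its share poorly known. Of the 6 intervals, that of control 2 was the one that did not include 50%, so which arm predominated was not resolved in the other 5.

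As a ratio, 17.7 counts of miR-335-5p were found for each count of miR-335-3p in control 2 (interval 16.0 to 19.6), 3.33 in control 1 (0.99 to 11.2) and 0.923 in control 3 (0.589 to 1.45). The ratio was 1.32, 1.33 and 1.67 in CIH 1, 2 and 3. Adapters are ligated to different small RNAs with different efficiency, so the ratio is not a molar ratio of the arms. It does not depend on the library total or on TMM factors, since both arms share them. The mean log2 ratio was 1.92 ± 2.14 for the controls and 0.52 ± 0.19 under CIH (SD, n = 3 each), a difference of -1.40 (two-sided exact permutation test, p = 0.4, smallest possible 0.1). Without control 1 the difference was -1.50, without control 2 it was -0.29, without control 3 it was -2.42 (same exact test, p = 0.1, the smallest that 2 libraries against 3 allow), and with control 3 as the only control it was 0.63. The arm ratios of other hairpins were not analysed here, since the accessions of their arms are not paired in the table.

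**Figure D4:**
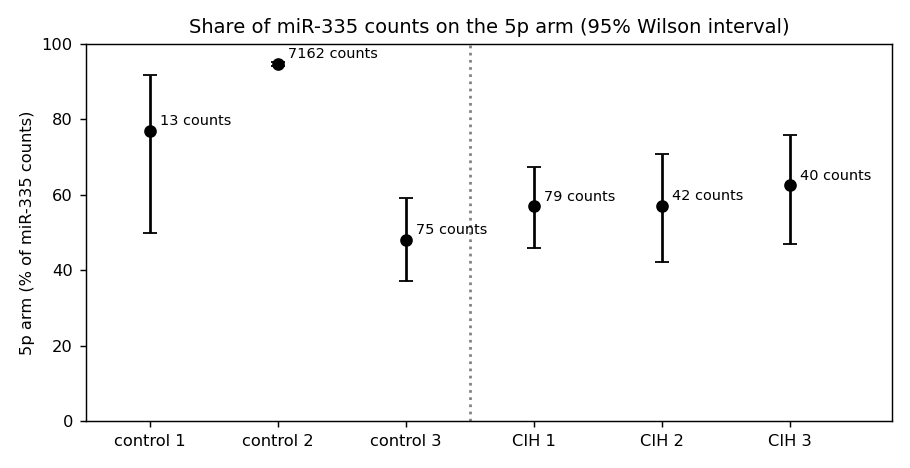
The share of miR-335 counts on the 5p arm is plotted in percent for each library, with 95% Wilson intervals and the number of counts of both arms. Control 2, with 7162 counts, stands at 94.7% with an interval that does not reach that of any other library.

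To set the value of control 2 against other miRNAs, each was described by how far its highest library exceeded the second highest. Of the 395 miRNAs that averaged 10 CPM or more, 109 had their highest level in control 2, and both miR-335 arms were among these. For these 109 the median ratio of control 2 to the second highest library was 1.69. miR-335-5p had a ratio of 45.3, the largest of the 109, and 3 of them in all exceeded 10-fold. miR-335-3p, with 2.63, ranked 28th. Over all 395 miRNAs and any library, miR-335-5p ranked 6th, and those with a larger ratio (67.0 to 336) were all highest in control 1. Control 2 was also the deepest library, and the part of depth in this difference was not tested.

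**Figure D5:**
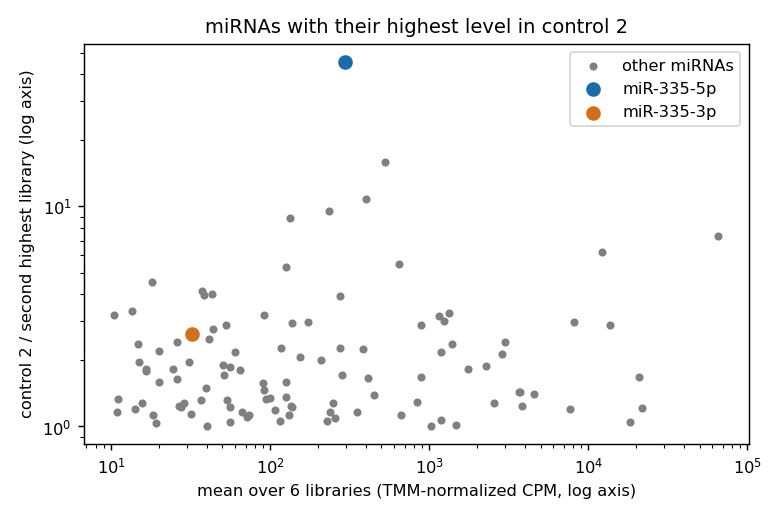
Each point is one of the 109 miRNAs that averaged 10 CPM or more and were highest in control 2, with the mean level on the x axis and the ratio of control 2 to the second highest library on the y axis, both log axes of TMM-normalized CPM. miR-335-5p (blue) has the largest ratio, 45.3, and miR-335-3p (orange) lies at 2.63 among the other miRNAs (grey).

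The spread within each group was also set against that of other miRNAs. The SD of log2 CPM over the 3 controls was 3.65 for miR-335-5p and 2.14 for miR-335-3p, against a median of 1.43 over the 395 miRNAs, of which 50 had a larger value than miR-335-5p and 110 a larger value than miR-335-3p. Over the 3 CIH libraries it was 0.25 for miR-335-5p and 0.36 for miR-335-3p, against a median of 0.39. The controls therefore spread more than the median miRNA for both arms, and the CIH libraries did not. For miR-335-3p the control mean of log2 CPM was 4.70, with 6.55 in control 2 and 2.36 in control 1. Its spread thus rested also on control 1, which had only 3 counts.

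The miRNAs with the pattern most like each arm were named by the root mean square difference of centred log2 CPM over the 6 libraries, among the 395. The nearest to miR-335-5p were MIMAT0003498 (0.71) and MIMAT0004828 (0.71), against a median of 2.42 over the 394 other miRNAs. MIMAT0003498 had 60, 10737 and 67 counts in controls 1, 2 and 3 and 202, 115 and 122 counts in the CIH libraries, so it too was highest in control 2. MIMAT0004828 had 21, 4498 and 63 counts in the controls and 141, 57 and 66 in the CIH libraries. The nearest to miR-335-3p were MIMAT0000156 (0.44) and MIMAT0017281 (0.49), against a median of 1.56. The other arm of the same hairpin was the 11th nearest to miR-335-5p (1.41, against the median of 2.42). From miR-335-3p, the partner was only the 165th nearest of the 394, at 1.41 against the median of 1.56. This measure counts the size of the differences between libraries as well as their direction. By it, other miRNAs lay nearer to each arm than its partner did, and for miR-335-3p the partner was little nearer than a typical miRNA. Both arms were still highest in control 2 and lowest in control 1, where miR-335-3p had only 3 counts. The names of these miRNAs are not paired with accessions in the files used here, and nothing is said of what they share.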

How the data were processed

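Small RNA libraries of mouse WAT, 3 control and 3 CIH, were analysed. The authors deposited raw read counts per mature miRNA accession; trimming, aligner, miRNA release and handling of reads with several matches are not given in the sources used here, and such choices can move counts between similar sequences. Libraries were grouped by their titles. The member names came with their accessions; sequences came from RefSeq (GRCm38.p6) and gene models from GENCODE M21. The members and lists were chosen with earlier results of these data known.

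The 633 miRNAs with at least 10 summed counts were tested with edgeR 4.0.16 under R 4.3.3 (TMM, quasi-likelihood, a design of group alone, p-values adjusted by Benjamini-Hochberg), after the code was tested on simulated data. Standard errors came from the fold change and the F statistic. Log2 CPM used a prior count of 2, and arm ratios none. DESeq2 1.42.0, limma 3.58.1 with voom, other normalizations and filters, the replicate block and each library left out were alternatives, and control 3 alone was added after seeing the data. Python 3.11.15, scipy 1.17.1 and RNAfold 2.7.2 were used. Named miRNAs were the members, the nearest 2 by pattern (of 5 in the rule, as accessions lack names) and the miRNA genes within 1 Mb. Lists of adipose, obesity, imprinted and cell type miRNAs and the arm ratios of other hairpins could not be joined to accessions, so the tissue was not checked against markers.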

Additional observations from a re-analysis of the deposited data

How the results depend on the processing

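The adjusted p-value of both arms stayed above 0.05 in every alternative that gave one (0.983 and 0.933 with control 3 as the only control), otherwise at 0.0873 to 0.975 for miR-335-5p (14 of 15 alternatives) and 0.447 to 0.975 for miR-335-3p (14). The fold change of miR-335-5p lay between -4.84 and 0.46 when single libraries were left out and that of miR-335-3p from -1.60 to 0.18, and both reversed without control 2 (0.46 and 0.18). With voom, miR-335-5p was at -1.92 and miR-335-3p at -0.45, and with upper-quartile factors they were at -5.12 and -1.79. The arm ratio difference lay between -2.42 and -0.29 when single libraries were left out, and reversed to 0.63 with control 3 as the only control. By an unadjusted p-value under 0.05 and 1.5-fold, miR-335-5p was called with upper-quartile factors (6.16% of all tested miRNAs called), with 10 counts or more required per library (11 of 238, 4.62%), without control 1 (17 of 633, 2.69%) and without control 3 (238 of 633, 37.6%), and miR-335-3p in no alternative.

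The number of miRNAs past those criteria, 16, was 39 with upper-quartile factors, 26 with DESeq2, 75 with voom and 8 with filterByExpr, which tests fewer miRNAs, and lay between 1 (without CIH 3) and 238 (without control 3) when single libraries were left out, being 6 without CIH 1 and 6 without CIH 2. Leaving out one library at a time, 0 to 118 miRNAs had an adjusted p-value under 0.05, the latter without control 3. For the others the cause was not tested. Requiring 10 counts or more per library leaves out miR-335-3p.

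Both groups carry replicate numbers 1 to 3. Deviations of same-numbered libraries correlated at 0.353, -0.116 and 0.0195. The value for number 1 was the highest of any control with any CIH library, while control 3 correlated best with CIH 2 (0.309). With 3 libraries per group, deviations from the group mean are tied to each other, so these values cannot decide whether the numbers mark pairs. Under the replicate block, the fold change was -1.02 for miR-335-5p and -0.45 for miR-335-3p, and 3 miRNAs passed the criteria. The arm ratio difference of -1.40 is the same under the block (exact sign-flip test, p = 0.5). Hairpin-wide arm ratios were not run. Counts in 2 digits or fewer limit both arms outside control 2.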
